A study of Homo sapiens with 12 samples.

Results

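Viperin overexpression (OE) was compared with empty vector over both insulin states in 12Z cells, a human epithelial line that was derived from endometriosis and immortalized. All 12 libraries of the series entered the comparison, and the plasmid named in their labels put 6 with pCAG Viperin on one side and 6 with pCAG empty vector on the other. Each side held 3 libraries given vehicle (Control and Viperin cells) and 3 given insulin at 100 nM (Insulin and Viperin + Insulin cells). Every culture was transiently transfected, serum starved before insulin or vehicle was added, and collected 24 h later for mRNA-seq. The question was which genes differed with the Viperin plasmid on average over both states, so insulin was a factor in the model and the difference was taken to be the same with and without it. The treatment protocol names a pBabe empty vector where the other labels and the methods name pCAG. If pBabe was used, the Viperin insert and the plasmid backbone cannot be told apart. A transfected culture mixes cells that took up the plasmid with cells that did not, and a level here is the average over both. In such bulk samples, fewer cells of a type and less RNA per cell cannot be told apart.

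The libraries held 25979022 to 46889002 assigned read pairs. Control library 1 and Viperin library 3 stood apart, with the largest shares of reads mapping to more than 1 place (13.9% and 12.1%) and the lowest read totals within their groups. The keratin genes KRT8, KRT18 and KRT19 held at least 11923 counts in every library, while EPCAM held 2 to 39, CDH1 24 to 66 and GRHL2 none. The mesenchymal genes VIM, CDH2, ZEB1 and THY1 held at least 1095 counts in every library. Other mesenchymal genes varied, with PDGFRB at 1639 to 2826 counts, PDGFRA at 563 to 880, ACTA2 at 17 to 55 and TCF21 at 6 to 27. The cells thus carried keratins of the labelled epithelial type and several mesenchymal genes, with few or no counts of EPCAM, CDH1 and GRHL2. Other epithelial genes varied, with PAX8 at 343 to 691 counts and CLDN7 at 0 to 7. Among genes of cell junctions, DSP lay at 96.9 to 123 CPM (scaled counts, defined below) and DSG2 at 133 to 158, but PKP1 at 0 to 0.209. Among leukocyte markers, CD14 held 127 to 258 counts, PTPRC 16 to 52 and CD3D none. The endothelial markers KDR and VWF held 116 to 303 and 102 to 186. Of the other endothelial markers, CDH5 held 51 to 138, PECAM1 12 to 30, TEK 0 to 4 and EMCN none.

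Viperin, encoded by RSAD2, is an enzyme of the endoplasmic reticulum and lipid droplets that interferon induces. It uses S-adenosylmethionine to turn CTP into a chain-terminating nucleotide, and it is known for limiting the replication of many viruses. RSAD2 (ENSG00000134321.12, chromosome 2 of GRCh38 from 6865557 to 6898239) checks the labels. Its level in CPM (counts scaled to library size, here after TMM scaling) was 2.28, 3.24 and 5.19 with the empty vector and 384, 533 and 665 with the Viperin plasmid (lowest, median and highest of 6 libraries). All 6 Viperin plasmid libraries lay above all 6 empty vector libraries, with a 154-fold ratio of means (p = 0.00216 by a two-sided exact permutation test, which can give no smaller p with 6 against 6). Transcripts of the plasmid and of the cell's own gene are counted together.

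The promoters of RSAD2 and of other interferon-stimulated genes often carry the paired GAAA letters that interferon-activated factors bind. The stretches shown are 60 bases from the RefSeq promoter windows of GRCh38.p14, plus strand, for RSAD2 (chr2:6877607-6877666) and for IFIT3 (chr10:89327816-89327875) and HERC5 (chr4:88456969-88457028), which were both lower with the Viperin plasmid. Capitals mark GAAANNGAAA read on the other strand as TTTCNNTTTC, with overlapping matches joined.
RSAD2: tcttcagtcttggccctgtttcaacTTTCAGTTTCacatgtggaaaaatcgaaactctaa
IFIT3: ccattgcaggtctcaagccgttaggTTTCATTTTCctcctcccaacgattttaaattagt
HERC5: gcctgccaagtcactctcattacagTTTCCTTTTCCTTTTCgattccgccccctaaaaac
The letters were searched on both strands in the 250 bases before each start. They stood in 22 of the 33 interferon-stimulated genes of the list that had a window, and in 3.71% of the 27305 genes with a window. A match describes the letters only, and the pCAG plasmid drives Viperin from its own CAG promoter, so the RSAD2 stretch bears on the cell's own gene alone.

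With the Viperin plasmid, 441 of 23041 genes passed an adjusted p of 0.001, which is 1.91% of the genes tested. Of these, 294 (1.28% of the genes tested) were higher and 147 (0.638%) lower, and 430 were protein coding. The differences were small. Among the called genes, log2 fold changes had a median size of 0.18, or 13.2%, and 4 genes differed by more than 2-fold: RSAD2 was higher, and HBB, HBD and ENSG00000286966 were lower. Over all genes tested the median log2 fold change was 0.0011. At an adjusted p under 0.05 there were 1775 genes (7.7%), 1004 higher (4.36%) and 771 lower (3.35%). In 367 of the 441 called genes, all 3 Viperin plasmid libraries lay on one side of the 3 empty vector libraries within each insulin state, as they did in 5.13% of all genes tested. In 211 the 6 libraries of each plasmid did not overlap, as in 2.06% of all genes.

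The count of called genes depended on single libraries. It was 695 without Control library 1, 251 without Insulin library 3, 282 without Insulin library 2 and 273 without Viperin + Insulin library 2. With Control library 1 and Viperin library 3 both left out it was 651 (420 higher and 231 lower). All 441 genes kept an adjusted p under 0.05 with any 1 library left out, and 190 kept one under 0.001. The split into higher and lower genes moved with the processing: 257 higher and 294 lower after a trend on GC content and transcript length was removed, and 356 higher and 277 lower with DESeq2 and independent filtering. The called higher genes had a median transcript length of 5289 bases and the called lower genes of 3510, against 2771 for all genes tested and 3819.5 for those at a mean of at least 1 CPM. The lower genes were thus longer than all genes tested and shorter than those at 1 CPM or more. The part of length in the result was not tested beyond that removal.

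**Figure D1:**
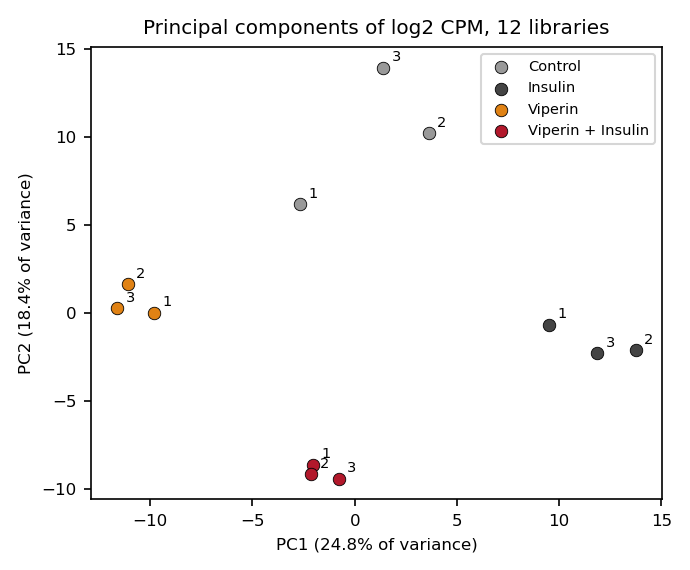
First and second principal components of log2 CPM, in component units, for the 12 libraries, with colours for the 4 groups and numbers for the libraries of a group. Viperin cells (-11.6 to -9.81) lie below Control cells (-2.69 to 3.63) on the first component, and Viperin + Insulin cells (-2.13 to -0.77) below Insulin cells (9.51 to 13.8).

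Genes of the basement membrane, the sheet of type IV collagen and laminin under epithelia, were higher with the Viperin plasmid. Of 25 measured members, 16 rose at an adjusted p under 0.05 (64.0%, against 4.36% of all genes), none fell, and the median log2 fold change was 0.18. COL4A5, a type IV collagen chain, was at 75.2, 80.3 and 89.9 CPM with the empty vector and at 92.7, 101 and 117 with the Viperin plasmid (lowest, median and highest of 6). Every Viperin plasmid library was above every empty vector library, and the log2 fold change was 0.32, with an SE (standard error) of 0.03 and an adjusted p of 4.7e-13 from edgeR. COL4A1, the chain that pairs with COL4A2, had 109, 129 and 138 CPM with the empty vector and 142, 149 and 160 with the Viperin plasmid, again without overlap (log2 fold change 0.25, SE 0.03, adjusted p = 1.9e-06). COL4A2 itself did not pass (adjusted p = 0.068), at a log2 fold change of 0.10. PXDN, the peroxidase that crosslinks type IV collagen, was at 254, 256 and 296 CPM against 297, 316 and 334 (log2 fold change 0.24, SE 0.03, adjusted p = 1e-09). LAMB1, a laminin beta chain, was at 235, 242 and 264 CPM against 272, 281 and 291 (log2 fold change 0.20, adjusted p = 2.8e-08), also without overlap. SPARC, a collagen-binding matricellular protein, was at 1420, 1759 and 1914 CPM against 1741, 1993 and 2233. Its plasmid groups overlapped over both states but not within either, and its log2 fold change was 0.22 (adjusted p = 1.2e-06). The linker NID2 was not called, at a log2 fold change of -0.07 (adjusted p = 0.39). The summed level of the list was 3247 to 3795 CPM in the empty vector libraries and 3933 to 4406 in the Viperin plasmid libraries, which did not overlap.

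Among the other collagens, 6 of 22 rose (27.3%, against 4.36% of all genes) and none fell, with a median log2 fold change of 0.22. COL3A1, a fibrillar collagen, was at 1300, 1454 and 1552 CPM with the empty vector and at 1659, 1702 and 1765 with the Viperin plasmid (log2 fold change 0.24, SE 0.03, adjusted p = 1.7e-06). COL1A2 was at 403, 430 and 503 CPM against 557, 572 and 600 (log2 fold change 0.38, SE 0.05, adjusted p = 0.00037). For both genes, and for COL1A1 (log2 fold change 0.23, adjusted p = 0.0081), no Viperin plasmid library reached down to an empty vector library. COL6A1 and COL12A1 did not pass, with log2 fold changes of 0.05 and 0.20.

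Matrix glycoproteins and proteoglycans, which build elastic fibres and organise collagen, rose in 17 of 37 members (45.9%, against 4.36% of all genes). They fell in 1 (SPOCK1), a share below the 3.35% of all genes. The median log2 fold change was 0.21. FBN1, the main protein of elastic microfibrils, was at 242, 268 and 282 CPM with the empty vector and at 293, 315 and 325 with the Viperin plasmid (log2 fold change 0.24, SE 0.03, adjusted p = 1.7e-10). FBLN2, a fibulin that binds fibrillin, had 141, 150 and 168 CPM against 188, 195 and 216 (log2 fold change 0.39, SE 0.04, adjusted p = 2.6e-06). MATN2, an adaptor of filament networks, had 162, 168 and 199 CPM against 210, 213 and 226 (log2 fold change 0.33, adjusted p = 3.8e-06). The libraries of each plasmid were apart for all of FBN1, FBLN2 and MATN2. FN1, fibronectin, did not pass at a log2 fold change of 0.26 (SE 0.08, adjusted p = 0.082). PODN, a small leucine-rich proteoglycan, was among the genes of largest fold change: 1.88, 3.07 and 4.37 CPM against 3.04, 4.72 and 5.67, a log2 fold change of 0.51 (adjusted p = 0.00064).

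**Figure D2:**
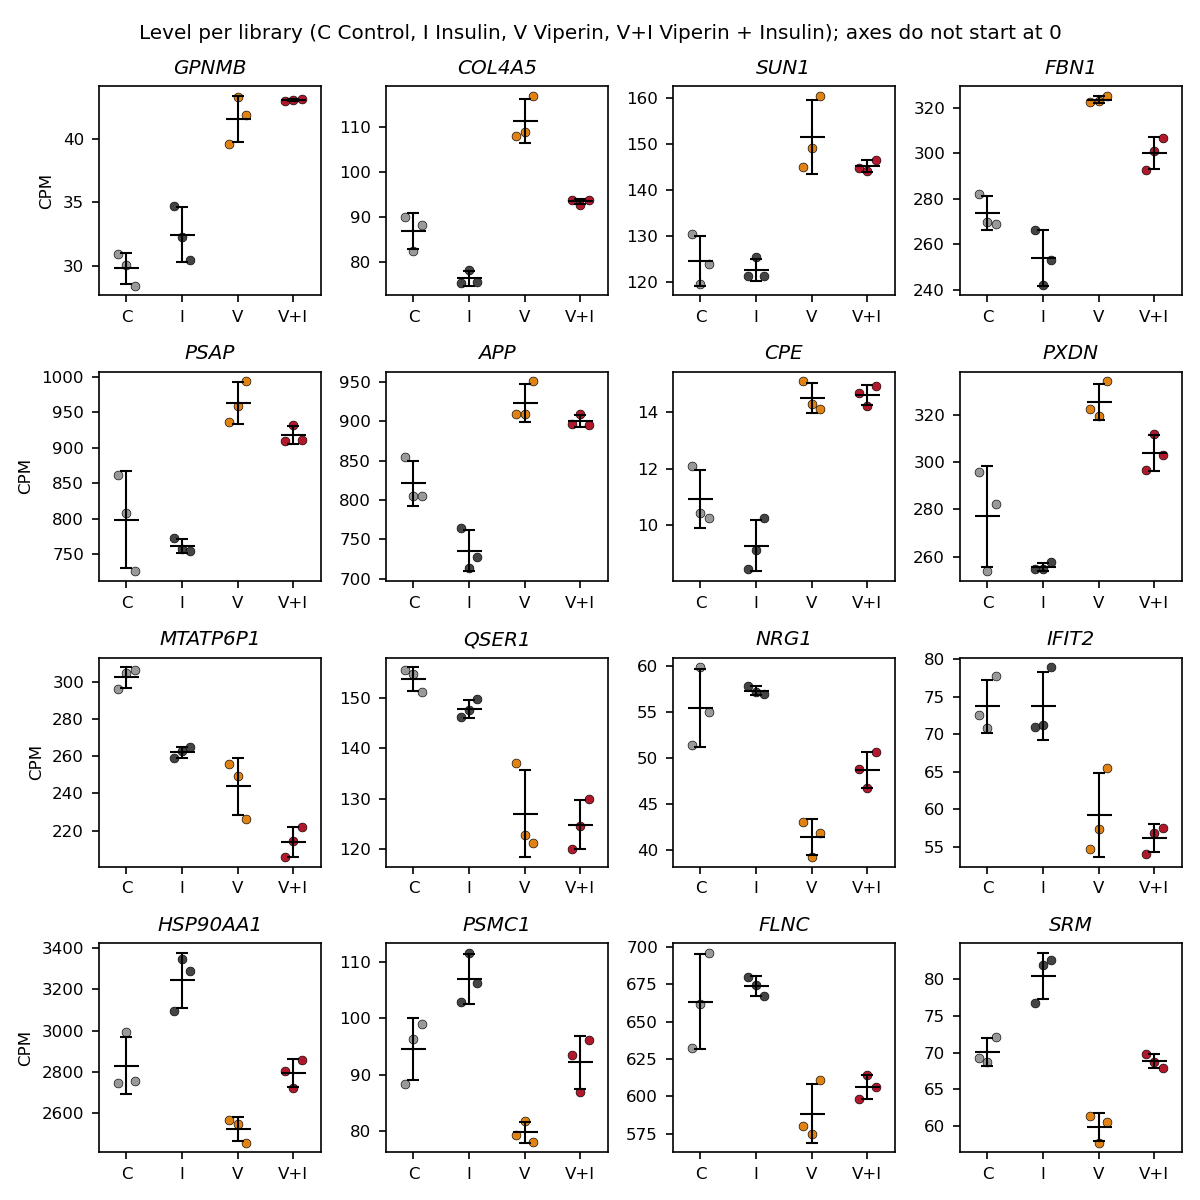
CPM of 16 genes in each library, with 1 panel per gene, 3 points per group and the mean ± SD as a bar (C Control, I Insulin, V Viperin, V+I Viperin + Insulin). GPNMB rises from 28.4 to 34.7 CPM over the empty vector libraries to 39.6 to 43.3 over the Viperin plasmid libraries, and SRM overlaps over both states (68.6 to 82.6 against 57.7 to 69.9) but not within either.

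Proteases of the matrix and their inhibitors rose in 11 of 33 members (33.3%, against 4.36% of all genes). They fell in 1, the inhibitor TIMP4 (3.03%, against 3.35%). The median log2 fold change was 0.07, and 0.04 with the trend on GC content and length removed. Without Viperin + Insulin library 2 the number that rose was 7, and the number that fell was 2 without Control library 1 and 3 without Insulin library 1. ADAM12, a membrane-bound metalloprotease, was at 86.7, 99.0 and 106 CPM with the empty vector and at 110, 115 and 118 with the Viperin plasmid (log2 fold change 0.24, SE 0.03, adjusted p = 7.8e-09). ADAMTS2, which trims the ends of procollagens, was at 11.5, 12.0 and 13.3 CPM against 15.5, 16.1 and 17.7 (log2 fold change 0.43, SE 0.06, adjusted p = 2.6e-08). Neither gene overlapped between plasmids. ADAM33, outside that list, was among the largest changes, at 5.45, 6.09 and 9.66 CPM against 8.70, 9.04 and 9.87 (log2 fold change 0.48, adjusted p = 0.00014), and Control library 1, the highest of the empty vector libraries, lay within the range of the Viperin plasmid libraries.

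Of the genes for receptors that hold cells to the matrix, 5 of 17 integrins rose (29.4%, against 4.36% of all genes) and none fell. Without Viperin + Insulin library 2, 3 rose. ITGB1, the beta chain shared by most matrix-binding integrins, was at 676, 685 and 703 CPM against 742, 773 and 783 (log2 fold change 0.16, SE 0.02, adjusted p = 1.7e-06), with no overlap. ITGAV had an adjusted p of 0.00061 and a log2 fold change of 0.16. Cadherins and their junction partners rose in 12 of 31 members (38.7%, against 4.36%) and fell in none, with a median log2 fold change of 0.09. L1CAM, a neural-type adhesion molecule, was at 148, 150 and 171 CPM against 174, 176 and 188 (log2 fold change 0.21, SE 0.03, adjusted p = 6.5e-08). CTNNB1, the beta-catenin that ties cadherins to actin, was at 308, 327 and 338 CPM against 352, 364 and 368 (log2 fold change 0.16, adjusted p = 5.5e-06). The desmosome genes DSG2 and PKP2 had log2 fold changes of 0.16 and 0.17.

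Lysosomal genes rose in 23 of 55 members (41.8%, against 4.36% of all genes) and fell in 1 (GLA, 1.82%, against 3.35%). Of the 55 fold changes, 47 were above 0, with a median of 0.09 on the log2 scale. The number that fell was 3 without Control library 1, 2 without Control library 2 or Viperin library 3, and 0 without Insulin library 2 or Viperin library 2. GPNMB, a glycoprotein of lysosomes and melanosomes, had the smallest p of all higher genes. It was at 28.4, 30.6 and 34.7 CPM with the empty vector and at 39.6, 43.0 and 43.3 with the Viperin plasmid (log2 fold change 0.44, SE 0.04, adjusted p = 1.4e-13). PSAP, the precursor of the saposins that help degrade sphingolipids, was at 726, 765 and 862 CPM against 910, 934 and 994 (log2 fold change 0.27, SE 0.03, adjusted p = 3.2e-10). LGMN, the lysosomal asparaginyl protease, was at 77.6, 81.2 and 84.7 CPM against 91.3, 93.8 and 99.0 (log2 fold change 0.21, adjusted p = 2.2e-07). None of GPNMB, PSAP and LGMN overlapped between plasmids. Other members had smaller values, such as 0.08 for LAMP1 (adjusted p = 0.018) and -0.08 for CTSD (adjusted p = 0.081). The summed level was 5470 to 5782 CPM in the empty vector libraries and 5861 to 6192 in the Viperin plasmid libraries. Among the subunits of the V-ATPase, the pump that acidifies lysosomes, 1 of 16 rose (6.25%, near the 4.36% of all genes): ATP6AP2 (log2 fold change 0.20, adjusted p = 4.2e-07). In the V-ATPase list 2 rose without Control library 1 or Viperin + Insulin library 3. None fell, but 2 did without Insulin library 1, and 1 did without Control library 2, Viperin library 3, Viperin + Insulin library 1 or Viperin + Insulin library 2.

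Other leading higher genes lay outside these lists. APP, the amyloid precursor protein, was at 714, 785 and 855 CPM with the empty vector and at 895, 909 and 951 with the Viperin plasmid (log2 fold change 0.23, SE 0.03, adjusted p = 7.1e-10). CPE, a carboxypeptidase that matures prohormones, was at 8.46, 10.3 and 12.1 CPM against 14.1, 14.5 and 15.1 (log2 fold change 0.54, SE 0.06, adjusted p = 7.3e-10), the largest change among the 15 higher genes of smallest p, RSAD2 apart. SUN1, an inner nuclear membrane protein that links the nucleus to the cytoskeleton, was at 120, 123 and 130 CPM against 144, 146 and 161 (log2 fold change 0.26, SE 0.03, adjusted p = 1.7e-10). No library overlapped between plasmids for APP, CPE or SUN1, though separation within each insulin state was a condition for choosing leading genes. SUN2, the paralog of SUN1, rose by 0.21 on the log2 scale (adjusted p = 4.9e-07). The list of nuclear envelope genes had 4 higher and 2 lower (LMNA and EMD) of 20. Both shares were above those of all genes, 4.36% higher and 3.35% lower. In that list 1 was lower without Insulin library 2 or Viperin + Insulin library 3. C1S, a protease of the first complement component, was at 33.6, 36.1 and 37.8 CPM against 42.1, 44.4 and 47.6 (log2 fold change 0.32, SE 0.04, adjusted p = 3e-09). DKK3, PKD2 and DDX17 had log2 fold changes of 0.22, 0.24 and 0.22, with adjusted p of 5.6e-09 or less.

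**Figure D3:**
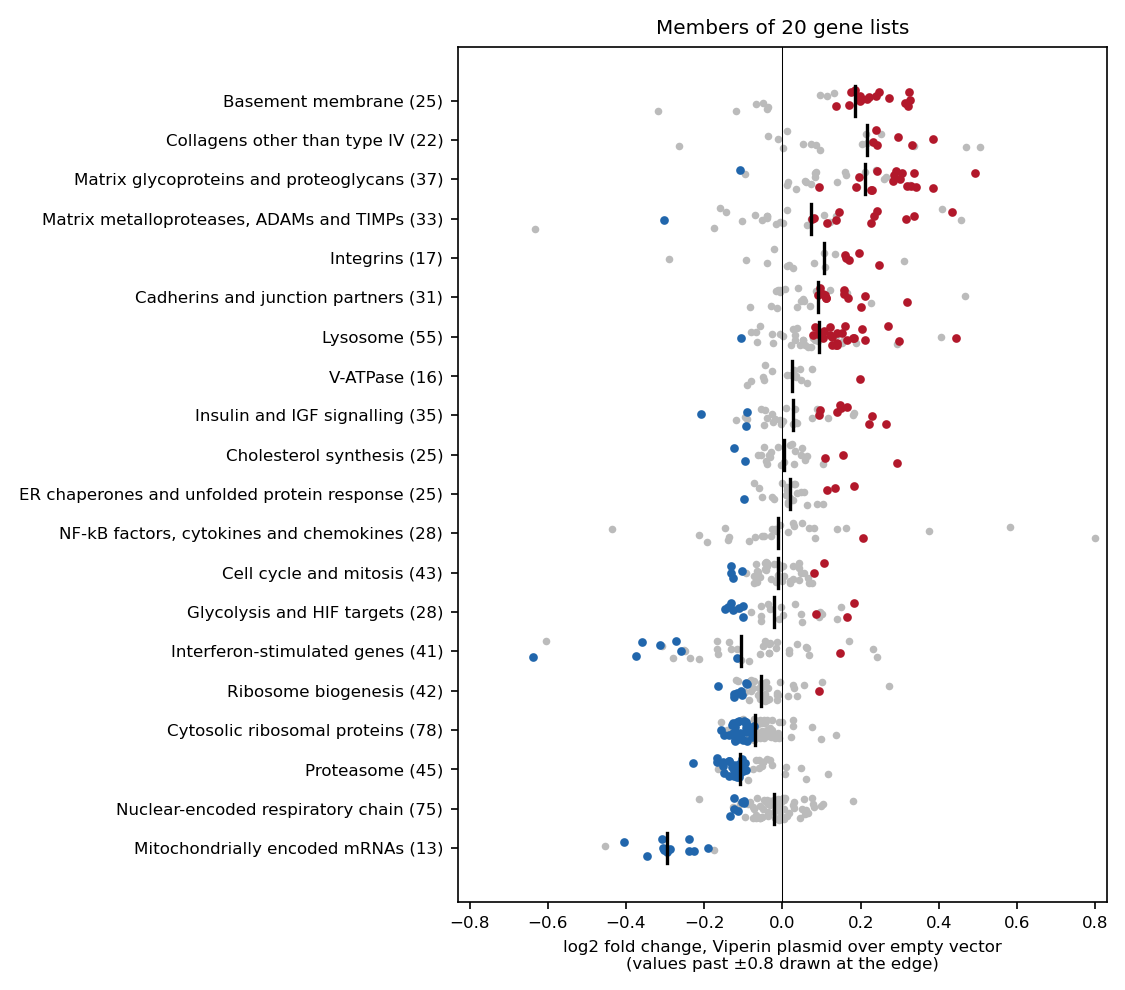
Log2 fold change of the Viperin plasmid over the empty vector for the measured members (number in brackets) of 20 gene lists, with a black bar at the median, red and blue for members called higher and lower at an adjusted p under 0.05 and grey for the others. Basement membrane members centre at 0.18 and mitochondrially encoded mRNAs at -0.29, and 1 value past 0.8 is drawn at the edge.

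The proteasome, the protease complex that degrades ubiquitin-tagged proteins, was lower as a group. Of 45 measured genes, 26 fell (57.8%, against 3.35% of all genes), none rose, and the median log2 fold change was -0.11, with 40 of 45 below 0. PSMC1, an ATPase subunit of the regulatory cap, was at 88.4, 101 and 112 CPM with the empty vector and at 78.2, 84.4 and 96.1 with the Viperin plasmid. The plasmids overlapped over both states but not within either, and the log2 fold change was -0.23 (SE 0.03, adjusted p = 1e-07). ADRM1, a ubiquitin receptor of the cap, was at 154, 173 and 179 CPM against 139, 152 and 163 (log2 fold change -0.17, adjusted p = 2.1e-05). PSMB7, a catalytic subunit, fell by 0.15 on the log2 scale (adjusted p = 3.8e-05), while the inducible subunits PSMB8 and PSMB9 had -0.09 and 0.01 and did not pass. Within each insulin state the summed levels were apart: 7245 to 7518 CPM in Control and 6742 to 6886 in Viperin cells, and 7754 to 8213 in Insulin and 7389 to 7470 in Viperin + Insulin cells.

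Cytosolic ribosomal protein genes fell in 28 of 78 members (35.9%, against 3.35% of all genes) and rose in none. Of the 78 fold changes, 72 were below 0, with a median of -0.07 on the log2 scale. The number that fell was 43 without Control library 3. RPL7 was at 488, 499 and 533 CPM with the empty vector and at 438, 462 and 487 with the Viperin plasmid (log2 fold change -0.14, SE 0.03, adjusted p = 0.00017). RPL8 was at 1154, 1181 and 1250 CPM against 1072, 1092 and 1132 (log2 fold change -0.12, adjusted p = 0.00034). Neither overlapped between plasmids. Ribosomal protein genes have many near-identical pseudogene copies with which reads can be shared, so single members are uncertain. Ribosome biogenesis genes fell in 8 of 42 members (19.0%, against 3.35% of all genes), and 1 rose (NOP56, 2.38%, against 4.36%). NPM1 was among those that fell (log2 fold change -0.12, adjusted p = 0.00022). The number that fell was 5 without Control library 2 and 5 without Insulin library 1. None rose without Insulin library 3, Viperin library 3, Viperin + Insulin library 1 or Viperin + Insulin library 3.

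All 13 mRNAs encoded by the mitochondrial genome had fold changes below 0, with a median log2 fold change of -0.29. At an adjusted p under 0.05, 11 fell (84.6%, against 3.35% of all genes). MT-ND4, a subunit of respiratory complex I, was at 6345, 6898 and 8960 CPM with the empty vector and at 4894, 5556 and 6517 with the Viperin plasmid (log2 fold change -0.35, SE 0.05, adjusted p = 0.002). MT-ND4L was at 502, 551 and 627 CPM against 417, 455 and 498 (log2 fold change -0.29, adjusted p = 0.003), with no overlap. MT-RNR1, a mitochondrial ribosomal RNA that lies outside that list, did not pass at -0.03 (adjusted p = 0.61). The number that fell was 6 without Insulin library 3, and 7 when Insulin library 2, Viperin library 2 or Viperin + Insulin library 2 was left out alone. It was also 6 once the trend on GC content and length was removed. MTATP6P1, a nuclear pseudogene copy of mitochondrial genes on chromosome 1 (633696 to 634376, GRCh38), had the smallest p of all lower genes, at 259, 280 and 306 CPM against 206, 224 and 256 (log2 fold change -0.30, SE 0.03, adjusted p = 2.5e-13). Its sequence is close to that of the mitochondrial genes, so its reads may belong to either. Nuclear genes of the respiratory chain fell in 7 of 75 members (9.33%, against 3.35% of all genes), at a median log2 fold change of -0.02. The number that fell was 2 without Insulin library 2, 3 without Insulin library 3 and 4 without Control library 2, Viperin library 1, Viperin library 2 or Viperin + Insulin library 3. It was also 4 once the trend on GC content and length was removed. None rose, but 6 did without Control library 1.

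**Figure D4:**
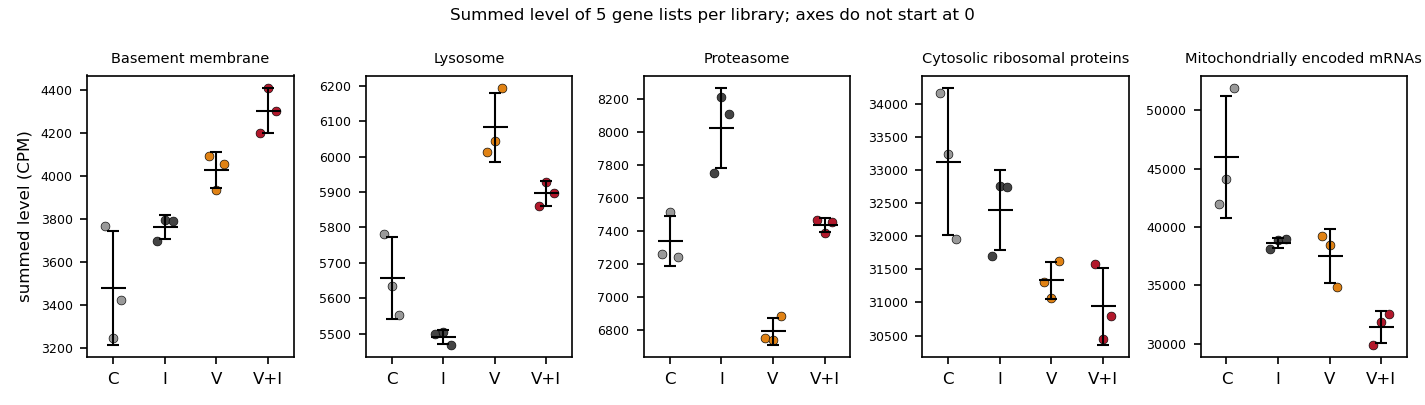
Summed level of 5 gene lists in each library, in CPM, with 3 points per group and the mean ± SD as a bar (C Control, I Insulin, V Viperin, V+I Viperin + Insulin). Within each insulin state, the Viperin plasmid libraries lie above the empty vector libraries for the basement membrane and lysosome lists and below them for the other lists.

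Other leading lower genes lay outside these lists. SRM, spermidine synthase, was at 68.6, 74.5 and 82.6 CPM with the empty vector and at 57.7, 64.7 and 69.9 with the Viperin plasmid (log2 fold change -0.23, SE 0.03, adjusted p = 1.3e-07). ODC1, ornithine decarboxylase, fell by 0.19 on the log2 scale (adjusted p = 2.9e-06), while AMD1, which makes the aminopropyl donor for the same pathway, was at 0.0039 (adjusted p = 0.97). HSP90AA1, the stress-inducible cytosolic HSP90 chaperone, was at 2744, 3044 and 3348 CPM against 2456, 2644 and 2856 (log2 fold change -0.19, SE 0.03, adjusted p = 7.1e-08). In the glycolysis and HIF target list, 7 of 28 genes fell (25.0%, against 3.35% of all genes). These were GAPDH, TPI1, HK1, PKM, LDHA, ENO1 and GPI, all of which encode enzymes of glucose breakdown. In the same list 3 rose (PFKM, SLC2A3 and NDRG1, 10.7%, against 4.36%), and 1 rose with the trend on GC content and length removed. GAPDH was at 4883, 5147 and 5272 CPM against 4546, 4612 and 4774 (log2 fold change -0.14, SE 0.02, adjusted p = 3.2e-05), with no overlap.

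Interferon-stimulated genes were not higher as a group. Of 41 measured members, 7 fell (17.1%, against 3.35% of all genes), 1 rose (2.44%, against 4.36%), which was STAT2 (log2 fold change 0.15, adjusted p = 0.001), and the median log2 fold change was -0.11. IFIT2, an RNA-binding antiviral protein, was at 70.9, 71.9 and 79.0 CPM with the empty vector and at 54.0, 57.1 and 65.5 with the Viperin plasmid (log2 fold change -0.36, SE 0.04, adjusted p = 1.1e-08). HERC5, the ligase that attaches ISG15 to proteins, was at 18.2, 19.7 and 22.5 CPM against 13.3, 15.6 and 17.9 (log2 fold change -0.38, SE 0.05, adjusted p = 8.8e-07). IFIT3 was at 120, 124 and 137 CPM against 95.9, 107 and 111 (log2 fold change -0.27, adjusted p = 2.3e-05). OASL had the lowest fold change among the members that fell, at 21.4, 27.0 and 31.8 CPM against 14.3, 17.5 and 19.9 (log2 fold change -0.64, SE 0.10, adjusted p = 0.0042). No library overlapped between plasmids for IFIT2, HERC5, IFIT3 and OASL. MX1 did not pass, at -0.03, and CMPK2, the neighbour of RSAD2, had -0.20 (adjusted p = 0.71). Of the proteins reported to bind Viperin, the signalling kinase IRAK1 fell (log2 fold change -0.17, SE 0.03, adjusted p = 3e-06), as did the mitochondrial adaptor MAVS (-0.14, adjusted p = 0.0018), while the lanosterol synthase LSS rose (0.11, adjusted p = 0.0062). TRAF6 and HADHB had -0.06 and 0.02 and did not pass.

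NRG1, a ligand of the ERBB3 and ERBB4 receptors, was at 51.4, 57.1 and 59.9 CPM with the empty vector and at 39.3, 45.0 and 50.7 with the Viperin plasmid (log2 fold change -0.32, SE 0.04, adjusted p = 6.9e-09), without overlap. In its list of ERBB receptors and EGF-type ligands, 2 of 14 measured genes fell (NRG1 and EPGN) and 2 rose (ERBB2 and LRIG1), 14.3% each way against 3.35% and 4.36% of all genes. Leaving out Insulin library 2, Viperin + Insulin library 1 or Viperin + Insulin library 2 left 1 each way, leaving out Control library 2 or Viperin library 3 left 1 that rose, and leaving out Viperin library 1 left 1 that fell. QSER1, which protects DNA from methylation, fell from 146, 150 and 156 CPM to 120, 124 and 137 (log2 fold change -0.26, SE 0.03, adjusted p = 3.2e-10). FLNC, an actin crosslinker, fell by 0.16 on the log2 scale (adjusted p = 2.9e-06), and neither QSER1 nor FLNC overlapped between plasmids.

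In the insulin and IGF signalling list, 9 of 35 genes rose (25.7%, against 4.36% of all genes) and 3 fell (8.57%, against 3.35%). The median log2 fold change was 0.03, and -0.01 with the trend on GC content and length removed. The receptors were among those that rose. IGF1R was at 79.8, 89.5 and 106 CPM with the empty vector and at 95.0, 105 and 119 with the Viperin plasmid (log2 fold change 0.22, SE 0.03, adjusted p = 8.9e-08), apart within each state. INSR was at 17.9, 20.3 and 26.4 CPM against 21.2, 25.0 and 31.0 (log2 fold change 0.27, SE 0.05, adjusted p = 6.4e-05). For the same genes the insulin term of the model, fitted on the same libraries, was -0.26 for IGF1R and -0.37 for INSR. The number of genes that fell was 1 with any of 5 single libraries left out (Insulin 2, Insulin 3, Viperin 1, Viperin 2 or Viperin + Insulin 3). Several lower genes also had an insulin term of opposite sign to their plasmid term: 0.19 for PSMC1, 0.20 for SRM, 0.33 for ODC1 and 0.17 for HSP90AA1 on the log2 scale. Both terms rest on the same 12 libraries. These genes are examples, and the share of called genes with terms of opposite sign was not counted. Other genes moved the same way with both, such as SPARC, at 1420 to 1665 CPM in Control, 1852 to 1914 in Insulin and 1741 to 1877 in Viperin cells.

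HBB, the adult beta-globin gene (chromosome 11, 5225464 to 5229395, GRCh38), was the gene that fell most. It was at 0.778, 2.02 and 3.34 CPM with the empty vector and at 0.025, 0.081 and 0.191 with the Viperin plasmid, from 407 and 21 counts in all (log2 fold change -3.80, SE 0.32, adjusted p = 4.5e-11). The groups did not overlap, as in 2.06% of all genes. Whether the HBB counts came from the cell's own gene alone was not tested. HBD, a near-identical paralog with which reads can be shared, held 59 counts with the empty vector and 8 with the Viperin plasmid. Among the other globin and erythroid markers, HBE1, HBG1 and HBG2 held no count, and HBA2 held 8 counts with the empty vector and 12 with the Viperin plasmid. Neither HBB nor HBD has an adjusted p with DESeq2 and independent filtering, which set both aside for low counts, and filterByExpr removed HBD.

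The remaining lists had up to 7 called members each, to be read against 4.36% higher and 3.35% lower among all genes. NF-kB factors, cytokines and chemokines had 1 of 28 higher and none lower, cell cycle genes 2 higher and 4 lower of 43, cholesterol synthesis 3 higher and 2 lower of 25, fatty acid oxidation 1 higher and 1 lower of 17, and genes of pyrimidine and S-adenosylmethionine synthesis, the pathways that supply Viperin's substrates, 2 higher (MTR and MAT2A) and none lower of 19. Genes of the unfolded protein response had 3 higher and 1 lower of 25, ATF4 targets 5 higher and 2 lower of 24, YAP/TAZ targets 4 higher of 23, and tubulins and their partners 4 lower of 32. With the trend on GC content and length removed, 9 tubulin genes, 7 cell cycle genes and 4 ATF4 targets were lower. These small counts depended on single libraries. With 1 library left out, the number higher ranged from 3 to 5 for ATF4 targets, from 2 to 4 for YAP/TAZ targets, from 0 to 1 for NF-kB genes, from 1 to 4 for cell cycle genes and from 1 to 3 for fatty acid oxidation. The number lower ranged from 3 to 7 for cell cycle genes, from 1 to 3 for ATF4 targets, from 1 to 2 for the unfolded protein response, from 1 to 2 for cholesterol synthesis and from 0 to 1 for pyrimidine and S-adenosylmethionine synthesis. The libraries behind the highest counts were Control 1 for cell cycle genes lower (7) and Control 3 for cell cycle genes higher (4), for fatty acid oxidation (3) and for the unfolded protein response (2). Mesenchymal and stromal markers had 6 higher (LUM and PDGFRB among them) and 1 lower (VIM) of 20, epithelial markers 1 lower (KRT8) of 15, endothelial markers 1 higher (KDR) of 8 and leukocyte markers none of 9. No epithelial marker was lower without Insulin library 2, Viperin library 2 or Viperin + Insulin library 3, and 1 was higher without the last of these, while 1 leukocyte marker was higher without Insulin library 1. The summed level of the mesenchymal list was 2919 to 3146 CPM with the empty vector and 2982 to 3186 with the Viperin plasmid, and its part in the matrix results was not tested.

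The plasmid difference was also fitted in each insulin state on its own, in fits that share no library. In the 6 vehicle libraries, 252 genes (1.09% of the genes tested) were called at an adjusted p under 0.05, 146 higher and 106 lower. In the 6 insulin libraries, 1761 (7.64%) were called, 870 higher and 891 lower. Of the 252, 237 (94.0%) had the same sign in the insulin libraries, against 60.5% of all genes and 67.3% of those at a mean of at least 1 CPM, and 171 were called there in the same direction. Of the basement membrane genes, 6 rose in the vehicle and 16 in the insulin libraries. Of the proteasome genes, 4 fell in the vehicle and 27 in the insulin libraries. The list medians were close in the vehicle and the insulin libraries, at log2 fold changes of 0.192 and 0.193 for the basement membrane. For the proteasome they were -0.105 and -0.102. GPNMB had log2 fold changes of 0.48 in the vehicle and 0.40 in the insulin libraries, COL4A5 0.36 and 0.28, FBN1 0.24 and 0.23, PSMC1 -0.24 and -0.22, and IFIT2 -0.32 and -0.40. For NRG1 they were -0.42 and -0.24, with an unadjusted p of 0.0084 and an adjusted p of 0.67 for the difference between them. No gene had a plasmid difference that itself differed between the states at an adjusted p under 0.05 by edgeR's test of the interaction, with 1297 at an unadjusted p under 0.05. The smallest adjusted p was 0.053, that of TNC among others, at log2 fold changes of -0.09 in the vehicle and 0.19 in the insulin libraries.

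**Figure D5:**
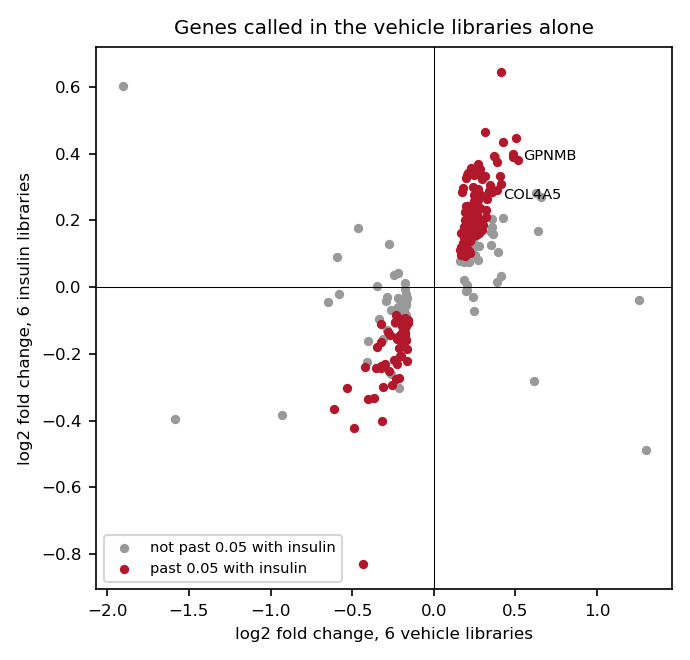
Log2 fold change of the Viperin plasmid over the empty vector in the 6 insulin libraries against that in the 6 vehicle libraries, for 249 of the genes called at an adjusted p under 0.05 in the vehicle libraries (RSAD2, HBB and HBD are not drawn). Red points, 168 genes, also pass in the insulin libraries, and all of these lie in the quadrants of equal sign.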

How the data were processed

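The samples were 12 mRNA-seq libraries of 12Z cells, 3 per group, which the methods call independent experiments. Per the methods, the authors used cutadapt and Trim Galore for trimming and FastQC for quality, and STAR for alignment to hg38. They deposited the raw counts of read pairs per gene that STAR wrote, with no normalization. For these tools the version was not given in the sources used here, and the GENCODE release that the methods name is a mouse one. Reverse-strand counts were used, and 20.6% to 24.9% of the reads of a library, those unmapped, multimapped (9.44% to 13.9% on their own) or not assigned to a gene, were left out of library sizes. No columns of other samples were left aside. GENCODE 44 named 60357 of 60617 gene IDs.

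The 23041 genes that averaged 1 count per library or more entered a fit, after TMM scaling, with edgeR 4.0.16 in R 4.3.3 (robust quasi-likelihood, insulin + plasmid, prior count 2). Calls used Benjamini-Hochberg adjusted p-values under 0.001 for genes and under 0.05 for list members. Library spread may hold technical as well as biological variation. Tables and figures used Python 3.11.15, numpy 2.4.6, pandas 2.3.3, scipy 1.17.1 and matplotlib 3.10.9. On simulated data with 200 changed genes of 23041 for this comparison, the fit at 0.001 found 51 of 67 genes changed 1.25-fold, 64 of 67 changed 1.5-fold and 66 of 66 changed 2-fold, with 1 false call. The changed genes were drawn only from genes with higher mean counts, and no insulin difference was simulated. The recovery of changed genes with few counts was not tested. Nor was that of changes under 1.25-fold, such as the median size of 13.2% among the called genes.

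The comparison and the 33 gene lists were chosen with earlier results of these data known, and list counts are not independent support. Lists hold 968 genes, of which 1 had no match. The rule for named genes took RSAD2 and HBB, the 15 higher and the 15 lower genes of smallest p at an adjusted p under 0.001 with a symbol and with libraries apart within each insulin state, the 5 of largest fold change each way at a mean of at least 1 CPM, and up to 4 members of each list. Other genes were named for their known role or after their values were seen, and only some of the genes taken are described. Results of a few genes are not reported here.

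Alternative settings were RLE size factors, RSAD2 and mitochondrial genes left out of library sizes, limma-voom (limma 3.58.1), DESeq2 1.42.0 with and without its independent filtering, no low-count filter, filterByExpr, unstranded counts, a replicate block, insulin left out, 4 group means, the multimapped percentage as a covariate, no robust option, vehicle or insulin libraries alone, each library left out, Control 1 and Viperin 3 left out, other thresholds, and removal of a loess trend (span 0.5) on GC content and length.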

Additional observations from a re-analysis of the deposited data

Results flagged for a closer look

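Among 259 tests of the 6 libraries of a plasmid for 1 library far from the rest, 12 passed Dixon's critical value (the gap to the nearest library over the whole range, given in brackets). Chance alone gives about 1 in 20 for libraries of 1 kind. Each set of 6 mixed vehicle and insulin libraries without adjustment for insulin, so that rate may not hold here. Control library 1 was the highest empty vector library for MATN2 (0.703), ITGAV (0.726), ITGA7 (0.746) and CCN1 (0.663) and the lowest for DRAP1 (0.675). Control library 3 was the lowest for ECI2 (0.734) and EDEM1 (0.744). Viperin library 3 was the highest Viperin plasmid library for SUN1 (0.687), APP (0.730), IFIT2 (0.671) and GAPDH (0.678), and Viperin + Insulin library 3 was the lowest for ERBB2 (0.651). Of the 12, 9 came from Control library 1 or Viperin library 3, the libraries with the largest shares of reads mapping to more than 1 place.

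On the strand opposite to RSAD2, which entered no comparison, the Viperin plasmid libraries held 14 to 90 counts each and 279 in all, while each empty vector library held 0. On the RSAD2 strand itself the Viperin plasmid libraries held 10862 to 28665 counts, and the opposite strand held 0.13% to 0.31% of that. The empty vector libraries held only 69 to 183 counts on the RSAD2 strand. Whether the opposite-strand counts are more than imperfect strand separation was not tested.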

How the results depend on the processing

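The number of genes called between plasmids (441, of which 294 higher and 147 lower) was 444 with RLE size factors, 377 with limma-voom, 341 with filterByExpr and 585 with the multimapped percentage as a covariate, and stayed within 1.5 times the main count in each. Without a low-count filter it was 708 (312 lower), with insulin left out of the model 59 (50 higher, 9 lower), and in the vehicle libraries alone 26 (15 higher, 11 lower). Lower genes numbered 221 and 277 with DESeq2 without and with independent filtering, 241 in the insulin libraries alone, 231 without Control 1 and Viperin 3, and 294 with the trend on GC content and length removed. At adjusted p under 0.05 and 0.01 there were 1775 and 952 genes (1004 and 581 higher, 771 and 371 lower). With 1 library left out the total was 251 to 695, the higher genes 177 to 447 and the lower genes 70 to 248. The low totals came without Insulin 3, Insulin 2 (282) or Viperin + Insulin 2 (273) and the high one without Control 1. A group with a library left out keeps 2, taken to vary like the others. The cause of these shifts was not tested, except that fewer libraries or a changed threshold act by construction. No named gene changed sign in a setting that gave it a value, but HBB, HBD and EPGN had no adjusted p with DESeq2 and independent filtering, and HBD was not tested with filterByExpr. Of the 130 genes that the rule names, those no longer past the threshold they pass over all 12 libraries (0.001 or 0.05) numbered 109 in the vehicle libraries alone, 84 with insulin left out, 24 in the insulin libraries alone, 15 with the GC content and length trend removed and 1 to 22 with 1 library left out. Same-numbered libraries of different groups did not deviate together (correlations of -0.081 to 0.071 over 13150 genes), and no pairing was used. Whether they came from the same experiment is not stated, and these correlations cannot settle it. A replicate block gave 424 genes (282 higher, 142 lower). Depth limits low genes such as HBD, with 8 counts over the Viperin plasmid libraries.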

Other observations

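Some called genes belong to none of the lists fixed for this comparison, and these were picked after their values were seen. Among chaperones, HSPD1, the mitochondrial HSP60, was at 526, 563 and 620 CPM with the empty vector and at 478, 516 and 547 with the Viperin plasmid (lowest, median and highest of 6), a log2 fold change of -0.15 (SE, the standard error, 0.03, and adjusted p = 1.6e-05). DNAJA1, a cytosolic HSP40, had -0.13 (adjusted p = 0.00021), HSP90AB1 -0.12 (adjusted p = 0.00066), and the CCT chaperonin subunits CCT5 and CCT7 had -0.11 and -0.15. TOMM40, the pore through which proteins enter mitochondria, had -0.14 (adjusted p = 0.00076).

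Among higher genes, the complement protease C1R rose by 0.33 on the log2 scale (adjusted p = 0.00013), beside C1S. CCNL1, a cyclin of splicing kinases, was at 49.4, 51.9 and 58.4 CPM against 57.7, 61.5 and 66.4 (log2 fold change 0.25, SE 0.03, adjusted p = 2.1e-07), and CLK2, a kinase of SR splicing factors, had 0.41 (adjusted p = 0.00082). NCSTN, a subunit of gamma-secretase, which cuts APP, had 0.16 (adjusted p = 0.00034).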
